A study of Caenorhabditis elegans with 2 samples.

Results

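The regions described here are the binding summits of eGFP-tagged NHR-6 that lay inside introns, away from the start of any protein-coding gene. They number 478, with 2242 others in the same list of the authors, which was thresholded by IDR, the irreproducible discovery rate. These 478 are 17.6% of the list (Wilson 95% interval 16.2 to 19). No source here says which comparison set the threshold. Of the 478 peaks, 473 overlapped a peak in the own list of replicate 1 and 476 one in that of replicate 2. A summit, the base of highest signal in a peak, was kept when it fell within the span of a protein-coding gene of the Ensembl annotation of build WBcel235 (ce11), outside every CDS and UTR of protein-coding genes, and outside the stretch from 1000 bp upstream to 200 bp downstream of every protein-coding gene's 5' end. This choice used position only, not signal. The others comprised 1568 in the window at a gene start, 603 in intergenic sequence outside those windows and 71 in exons. The chromatin came from whole Caenorhabditis elegans of strain OP90 at the fourth larval stage, L4, with males and females pooled. Per the labels, the strain carries the allele unc-119(ed3) on chromosome III and the transgene wgIs90, the insertion that targets nhr-6. All worms were of this 1 group, with 2 biological replicates, so no comparison between conditions could be made, and binding in one tissue could not be told apart from binding in many. The labels do not say which promoter drives the tagged protein.

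NHR-6 is the nematode member of the NR4A class of nuclear hormone receptors, transcription factors with a zinc-finger DNA-binding domain that can bind DNA as monomers. It is known for its role in the development of the spermatheca, the organ through which oocytes pass to be fertilised. Introns hold much regulatory sequence in C. elegans: enhancers, promoters of shorter transcripts of the same gene, and complete genes for small RNAs such as snoRNAs and tRNAs.

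An 8-mer, TGCGTCTC, recurred within 50 bp of the intronic summits, about as often as at the other summits of the list. It arises where 2 hexamers that were searched for, GACGCA and CGTCTC, overlap, and it was singled out after its values were seen. It was present, on either strand, at 50 of the 478 summits, and its centre lay at a median of 19 bp from the summit. Some of these sites are printed to show how far the neighbouring bases are alike across unrelated genes. Each is 30 bases of RefSeq genome sequence, build WBcel235, read 5' to 3' along the strand of the 8-mer, which is in capitals, and each name is that of the host gene.
F53C11.5, V:13789583-13789612, plus strand: atctttttgtcTGCGTCTCgacgatacatt
zfp-1, III:8802098-8802127, plus strand: gcttaagactcTGCGTCTCttttgcgcaat
Y111B2A.12, III:12612655-12612684, plus strand: cactcgatgtcTGCGTCTCggtgtcatttg
par-1, V:14136288-14136317, minus strand: gtttgtttcacTGCGTCTCttttggtttgg
jac-1, IV:16024331-16024360, minus strand: tctctccactcTGCGTCTCacactctcttc
epg-9, IV:2602167-2602196, plus strand: ctttgcctgtcTGCGTCTCctccgtagtca
mpk-1, III:4223788-4223817, minus strand: atctaaatgtcTGCGTCTCttgatactccc
daf-12, X:10637565-10637594, minus strand: ttgctgcactcTGCGTCTCttccactcaga
In 49 of the 50 sites the base before the 8-mer was C, and in 42 the base before that was T. The base after it was T in 34 sites. At every other position of the neighbouring bases, the commonest base was in at most 30 sites. The 50 sites lay in 47 host genes on all 6 nuclear chromosomes.

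A second set, printed because it carries other sequences common at these summits, shows sites of the AP-1 type (TGANTCA) and long GA repeats. The pattern TGANTCA covers TGACTCA and TGAGTCA, the forms bound by Jun and Fos proteins, and also TGAATCA and TGATTCA. All printed sites are given on the plus strand, with the match in capitals. The AP-1 type sites printed have TGACTCA or TGAGTCA, whereas some other summits had TGAATCA or TGATTCA.
vhp-1, AP-1 type: attgtcatcgaTGAGTCActtcgtcaatag
jun-1, AP-1 type: aaccagcaaggTGACTCAtttacagcttct
abts-4, AP-1 type: tctgtcacacaTGAGTCAcacacttggagt
egl-4, GA repeat: tctcgctctcTCTCTCTCTCtaacagtcgc
kin-20, GA repeat: tacaacgtggGAGAGAGAGAccagactgtg
ntl-3, GA repeat: gcgagagagaGAGAGAGAGAcggagagata
The strongest intronic summits of all, in egl-5, held none of these in the 30 bases printed below. Those bases carry no match to any of the 18 motifs searched. They are a narrower stretch than the 50 bp to each side of a summit used for the motif shares.
egl-5, intron 1, III:7814916-7814945: caacatgcacctggtttctttcttctttgg
egl-5, intron 3, III:7815766-7815795: tcgctctaaaccccatccgaaaactcaaaa

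Each peak's signal is a value the authors gave it, on a scale that no source here states, so values were read within 1 list only. Most intronic summits were modest peaks, and the exception was egl-5, an Abdominal-B type Hox gene. The peak in intron 1 of egl-5 had a signal of 1302 and that in intron 3 a signal of 929, ranks 2 and 3 of the thresholded list. In replicate 1 the matching peaks had signals of 908 and 615, ranks 1 and 3. In replicate 2 they had signals of 414 and 347, ranks 2 and 3. Both lie in 1 deposited interval of 2669 bp, III:7814327-7816995, which the list holds 4 times with different summits, the other 2 being exonic. The gene lies at III:7814374-7817141, so this interval begins upstream of its 5' end and covers most of it. Only the summits, not the whole peak, lie in introns away from the gene start. The next intronic summit, in intron 1 of F53C11.5, reached 156, so that a wide gap separated egl-5 from the rest.

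The next summits by signal lay in hosts of varied kinds. The summit in intron 7 of mom-1, which encodes the Porcupine protein needed for Wnt secretion, had a signal of 134. That in Y41G9A.17 had 133.8, and that in intron 10 of zfp-1, a PHD-finger chromatin protein, had 109.6. Signal was 108.8 in Y111B2A.12, 107.2 in nhr-19, another nuclear receptor gene, 101.4 in par-1, the cell polarity kinase, and 100.1 in ifbp-1. The cohesin loader gene scc-2, the p120 catenin gene jac-1, the chromatin gene egl-27 and the cadherin gene hmr-1 followed with 95.5, 93.2, 92.3 and 86.5. Lower among the 25 strongest were T24B8.3 with 85.8, Y67D8A.2 with 82.3, epg-9 with 81.1, pqn-41 with 77.7, spop-1 with 76.6, pkg-2 with 73.4, pbrm-1 with 69.1 and inso-1 with 68.9. In each replicate's own list, the strongest peaks were taken in the same number as the thresholded list has entries, and are called its top peaks. All 25 of the strongest intronic summits were among the top peaks of both replicates, and 13 intronic summits were among the 100 strongest of the thresholded list.

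The bulk of the list lay far lower. The median signal was 36.5 (order-statistic 95% interval 35.5 to 38.1, n = 478), with the middle of the distribution between 31.6 and 46.5. At summits in gene-start windows the median was 40.8 (40.2 to 41.9, n = 1568) and at distal intergenic summits 36.9 (35.7 to 38.3, n = 603). The interval of the intronic summits overlapped that of the distal intergenic ones and lay wholly below that of the gene-start windows. Without the peaks in egl-5 the intronic median was again 36.5. Such peaks became more common down the list. They made up 12.5% of the 680 strongest summits (10.2 to 15.2), then 17.4%, 19.4% and 21% (18.1 to 24.3) of the following sets of 680. Among 27280 weaker pooled peaks outside the thresholded list the share was 30.7%, near the 30.5% of the 100.3 Mb nuclear genome that satisfies the same rule.

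**Figure D1:**
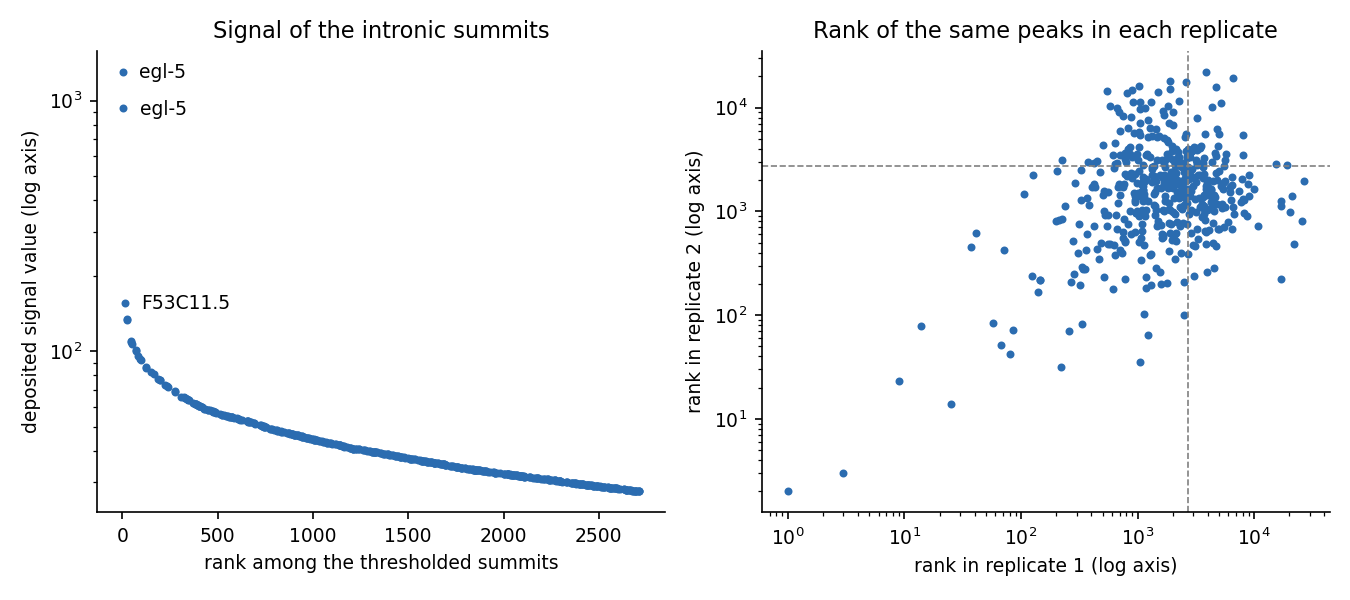
Left, the deposited signal value (log axis) of each of the 478 intronic summits against its rank among all thresholded summits, with the summits in egl-5 at 1302 and 929 above all others. Right, the rank of the same peaks in replicate 1 and in replicate 2 (log axes, 471 peaks matched in both), where dashed lines mark the last of the top peaks and 233 summits lie within both limits.

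Intronic and distal intergenic summits were alike in how often they were among the top peaks of both replicates, and both were below gene-start summits. Of the 478, 330 were among the top peaks of replicate 1 and 346 among those of replicate 2. Both held for 233, or 48.7% (44.3 to 53.2), against 54.5% of the other thresholded summits, a difference of -5.80 percentage points (Newcombe 95% interval -10.7 to -0.877). The share was 49.4% (45.4 to 53.4) at distal intergenic summits and 57.4% (54.9 to 59.8) in gene-start windows. Neither held for 35, or 7.32%, against 5.0%. Spearman's rho between the replicates' signals was 0.16 over 471 intronic peaks, 0.22 over 592 distal intergenic ones and 0.33 over 1550 in gene-start windows. These correlations are descriptions across peaks, which share the libraries and were selected on pooled signal. The intervals throughout count summits, which are not replicates of a condition and, where close together, can share a peak. Read depth was unknown.

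Most summits lay in inner introns, but long introns and first introns held more of them than their share of sequence. Inner introns, neither first nor last, held 57.2% of the 477 summits that could be placed in an intron and 66% of the eligible bases, that is, of the 30.6 Mb where a summit would satisfy the rule. First introns held 177 summits, or 37.1% (32.9 to 41.5), and 21.3% of bases. Last introns held 5.66% of summits (3.92 to 8.11) and 12.6% of bases. The median length of a host intron was 2210 bp (1832 to 2655), against 948 bp when every eligible base is counted with its own intron. Introns over 5000 and up to 10000 bp held 19.5% of summits (16.2 to 23.3) and 8.20% of bases. Introns of at most 500 bp held 16.1% of summits (13.1 to 19.7) and 28.2% of bases. The summits were set back from the 5' side of the intron: when each intron was cut into 3 equal stretches, the one at the 5' side held 25.8% of summits (22.1 to 29.9) and 32.5% of bases. Their median distance from the host's 5' end was 3208 bp (2663 to 3646), against 2666 bp by base. The stretch from 5000 to 10000 bp from it held 23.3% of summits and 17.5% of bases, a ratio of 1.33 (1.13 to 1.56), and the stretch from 200 to 1000 bp had a ratio of 0.874 (0.722 to 1.05).

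**Figure D2:**
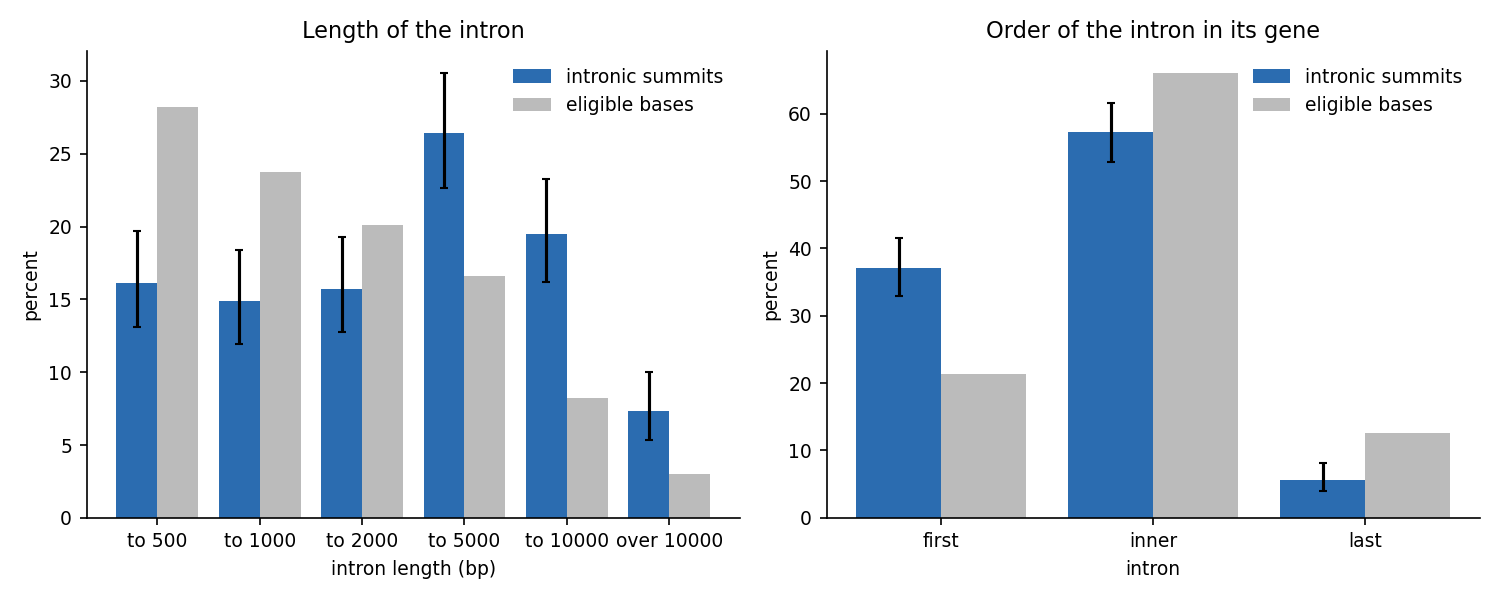
Share of the 477 intronic summits placed in an intron (blue, with Wilson 95% intervals) and of eligible bases (grey), in percent, by intron length in bp and by the order of the intron in its gene. Summits exceed bases above 2000 bp and in first introns, and fall short of them up to 2000 bp and in last introns.

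Many introns hold the 5' end of a shorter transcript of the same gene. Such inner starts, more than 200 bp from the gene's own 5' end, were not used to choose the summits. Of the 478 summits, 22% (18.5 to 25.9) lay within 500 bp of one, against 8.80% of eligible bases. All of these were nearest to an inner start of their own host gene, and 91 of them, or 86.7%, lay upstream of it. That the start was the host's own was largely fixed beforehand, because 475 of the 478 summits lay in the span of 1 gene only. Upstream stretches of 500 bp held 19% of summits, 3.38 times their share of bases (2.80 to 4.05), whereas downstream stretches held 4.18%, 1.20 times their share (0.780 to 1.82). The strongest was F53C11.5, 284 bp upstream of an inner start. The summit in scc-2 lay 161 bp upstream, that in T24B8.3 429 bp upstream and that in ZK1193.2 180 bp upstream, while that in egl-27 lay 397 bp downstream. Signal near inner starts (median 36.2, 33.3 to 40.2) overlapped that of the other intronic summits (36.5, 35.4 to 38.2).

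Small RNA genes were the closest neighbours of another set. Within 200 bp of a tRNA gene lay 40 summits, or 8.37% (6.21 to 11.2), where 0.283% of eligible bases lie so near, a ratio of 29.6 (21.9 to 39.6). For snoRNA genes, whose products guide chemical modification of other RNAs, the count was 32, or 6.69%, against 0.184%, a ratio of 36.4 (26 to 50.6). There were 4 summits near snRNA genes and 4 near miRNA genes. By contrast, piRNA genes, which are very numerous, had 6 summits near them, 1.26% against 3.12% of bases, a ratio of 0.402 (0.185 to 0.868). Counted by gene, 46 of the 277 tRNA genes near eligible sequence (16.6%) and 33 of the 168 snoRNA genes (19.6%) had an intronic summit within 200 bp, against 7 of 5627 piRNA genes (0.124%).

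The summits sat on or close to these genes. Of the 40 near a tRNA gene, 21 lay inside it and 18 within 50 bp outside it, and 16 of the 19 outside were upstream. Of the 32 near a snoRNA gene, 6 lay inside, 23 within 50 bp outside, and 20 of the 26 outside were upstream. The tRNA genes ran along the host strand in 21 cases and against it in 19, and the snoRNA genes along it in 23 and against it in 9. Among the tRNA cases the highest signals were 56.2 in sulp-3, 50.6 in ZC455.1 and 50.4 in him-4. Among the snoRNA cases they were 72.4 in frm-7, 71.7 in rbm-34 and 65.2 in cfim-2. The summit in F58G1.7, with 64.4, lay inside sup-6, annotated as an snRNA gene, and the highest signals near miRNA genes were 61.5 in nurf-1 and 37.6 in magi-1. Near genes of the class annotated only as ncRNA lay 93 summits (19.5% against 3.59% of bases), with the ncRNA gene on the strand opposite to the host in 69. These 93 overlap the other classes: 139 summits lay within 200 bp of any noncoding RNA gene, and 90 did so with the class ncRNA left out.

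**Figure D3:**
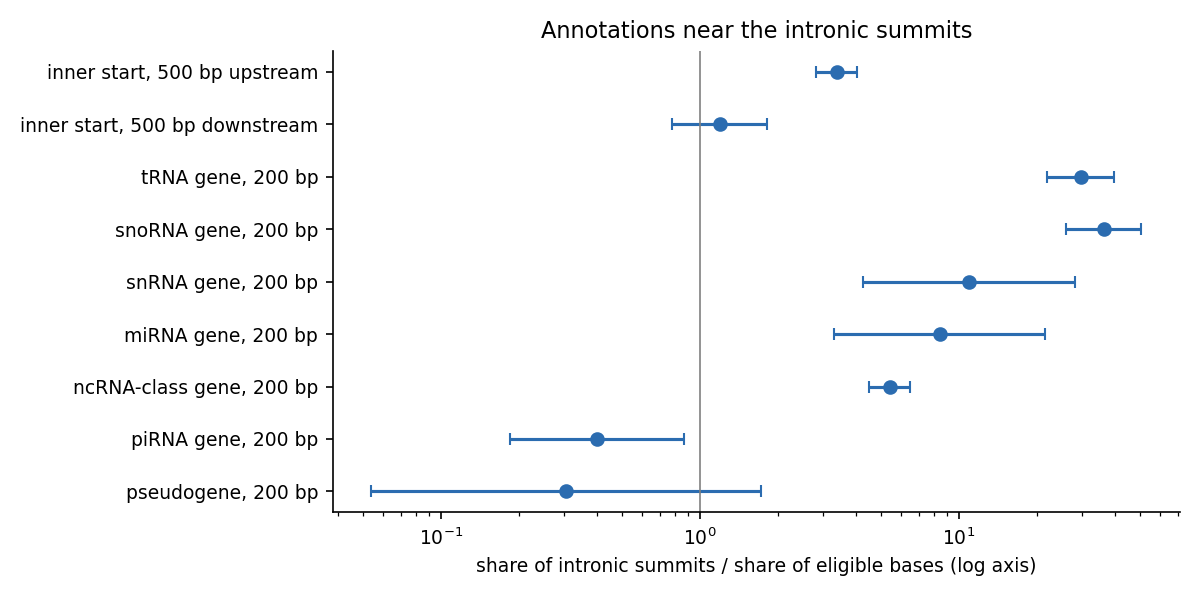
Ratio of the share of the 478 intronic summits to the share of eligible bases (log axis) near each kind of annotation, with bars from the Wilson 95% intervals of the summit shares. The ratio is 36.4 for snoRNA genes, 29.6 for tRNA genes and 3.38 upstream of inner starts, near 1 downstream of them, and below 1 for piRNA genes and pseudogenes.

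With each summit counted once, 80 were near a tRNA, snoRNA, snRNA or miRNA gene (16.7%), a further 95 near an inner start (19.9%) and a further 50 near another noncoding gene (10.5%). The remaining 253, or 52.9% (48.4 to 57.4), had none of these annotations nearby.

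The 478 summits fell in 376 of the 19973 protein-coding genes and in 410 introns. There was 1 summit in 311 hosts, 2 in 46 hosts and 3 or more in 19 hosts. Those 19 hosts held 75 summits. Each of 4 genes held 6: vhp-1, a MAP kinase phosphatase gene, ppfr-1, a regulatory subunit gene of protein phosphatase 4, fkh-7, a forkhead gene, and lit-1, the Nemo-like kinase gene of Wnt signalling. There were 5 each in zfp-1 and in daf-5, a Sno/Ski family gene of the dauer pathway, and 4 each in ifbp-1 and in let-526, a SWI/SNF subunit gene. Hosts with 3 included egl-27, jun-1, the nucleosome remodelling gene nurf-1, the AMP-activated kinase subunit gene aakg-1 and mnk-1. Another thresholded summit lay within 1000 bp of 14.2% of intronic summits and of 7.36% of the others, a difference of 6.87 points (3.79 to 10.4). The share was 8.46% (6.49 to 11) at distal intergenic summits and 6.38% in gene-start windows.

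The hosts with 6 differed in layout. In vhp-1, II:5323276-5340829, the summits spanned 13256 bp and 4 introns, and their signals ran from 28 to 76.9. The strongest lay in intron 5 and had signals of 43.1 and 39.8 in replicates 1 and 2, and the next summit, 199 bp away, matched the same replicate peaks and is not independent of it. In ppfr-1 they clustered within 3506 bp and 2 introns, with signals from 39.6 to 64.2. In fkh-7, IV:5584684-5610378, they spanned 16177 bp and in lit-1, III:13701991-13724404, 18388 bp, each at least 621 bp from the next. All 5 in daf-5 lay in its first intron of 14446 bp, with signals between 31 and 40.9. The weaker of these peaks were uneven between replicates: the lowest in daf-5 ranked 887 in replicate 1 and 14958 in replicate 2.

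**Figure D4:**
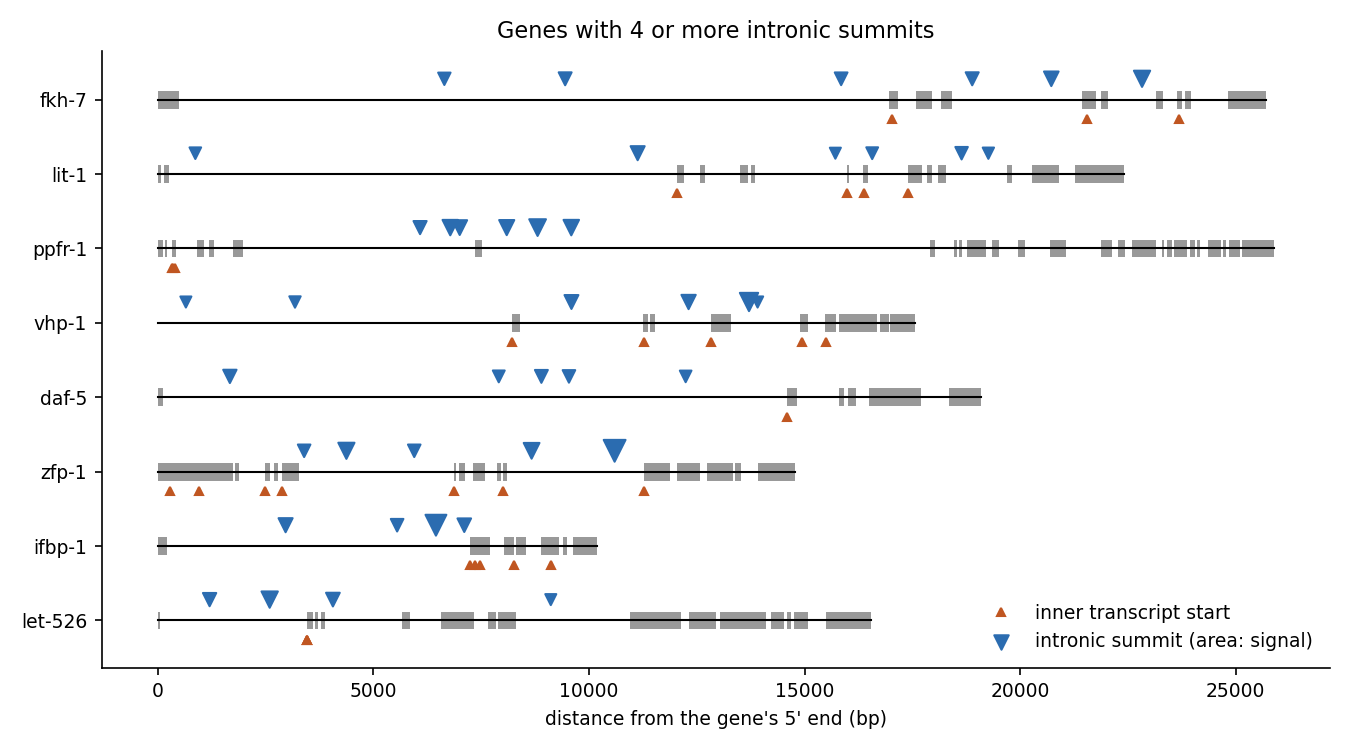
The 8 genes with 4 or more intronic summits, drawn to scale from the gene's 5' end in bp, with coding-gene exons in grey. Blue triangles above the line are intronic summits, with area proportional to signal, and orange triangles below it are inner transcript starts. The 6 summits of ppfr-1 sit together, those of fkh-7 and lit-1 are spread over most of the gene, and the 5 of daf-5 lie in 1 intron.

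Gene length mattered for which genes held a summit. The share of genes with one was 0.397% with up to 1000 eligible bp, 2.19% with 1000 to 3000, 6.64% with 3000 to 10000 and 19.9% above 10000. Gene groups were therefore described per eligible Mb. Over all protein-coding genes the density was 15.7 summits per Mb (Poisson 95% interval 14.3 to 17.2). The groups were described and not tested, and each rests on few genes. Values in parentheses after a gene are its signal.

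Transcription factors other than homeobox and nuclear receptor genes stood highest among the groups of more than 10 summits: 18 of 191 genes held 33 summits, 55.8 per Mb (38.4 to 78.4), led by egl-27 (92.3), jun-1 (63.9), the FOXO gene daf-16 (63.7) and zip-3 (60.9). Of these 33, fkh-7 alone supplied 6. Kinases and receptor signalling genes had 30.9 per Mb (19.8 to 46), with 24 summits in 16 of 117 genes, among them par-1, the cGMP-dependent kinase egl-4 (51.4), the ERK kinase mpk-1 (50.7) and the casein kinase 1 gene kin-20 (50.1). Genes known in the spermatheca and ovulation had 38.3 per Mb (16.5 to 75.5), with 8 summits in 6 of 31 genes, including jun-1, nhr-6 and vav-1 (53.6). Its lower bound lay close to the density of all genes. Of these 8, jun-1, which is also among the transcription factors, supplied 3, and nhr-6, where reads from the transgene cannot be told apart, supplied 1. Cytoskeleton and junction genes had 26.8 per Mb (13.4 to 47.9), with jac-1, frm-7 (72.4), ajm-1 (55.6) and vab-10 (43) the strongest. That interval held the density of all genes.

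For the other groups the interval held the density of all genes, except for ion channel genes, where it lay below. Nuclear hormone receptor genes had 24.2 per Mb (12.1 to 43.3), from 9 of 274 genes, with nhr-19, nhr-46 (61.3) and nhr-3 (57.7) leading. Ion channel and neurotransmitter receptor genes had 5.40 per Mb (1.98 to 11.8), from 4 of 255 genes, led by inx-11 with 56.9. The homeobox list had 14.1 (3.85 to 36.2), and of its 4 summits 2 were those of egl-5. The others were in zfh-2 and in egl-13, which is a SOX gene and not a homeobox gene. Axon guidance and adhesion genes had 12.6 (5.45 to 24.9), led by hmr-1. Sarcomere genes, with lev-11 (35.8), act-3 (33.7) and lim-8 (28.1), had 10.3 (2.12 to 30.1), and synaptic vesicle and transport genes 10.1 (2.08 to 29.4), led by unc-108 with 52.4. RNA-binding genes had 20.7 (4.26 to 60.4), led by hrpk-1 with 49.9. The list of chromatin and RNA polymerase II genes had 15.8 (3.26 to 46.2). Its 3 summits were in mdt-26 (36), mdt-4 and mdt-27. It does not include zfp-1, egl-27, let-526 or nurf-1, so its density does not cover those chromatin genes. Ribosomal protein genes and mitochondrial and energy genes had 1 summit each, in rpl-19 (31.7) and pyk-1 (30.3).

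The gene for the tagged protein was itself a host. In nhr-6, III:3573581-3578771, the summit lay at III:3574804 in intron 4 of 11, with a signal of 53.9 and rank 600. It ranked 340 in replicate 1 and 277 in replicate 2, with signals of 34.1 and 37.4. Within 5000 bp of the gene there were also 2 distal intergenic summits, with signals of 31.6 and 31.5. The worms carry a tagged copy of nhr-6 in wgIs90, and reads from that copy and from the native gene cannot be told apart here.

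The share of genes bound at their own start as well was higher among hosts. The start window held a thresholded summit in 58 of 376 hosts (15.4%, 12.1 to 19.4) and in 1679 of 17168 other genes with eligible bases (9.78%), a difference of 5.65 points (2.32 to 9.67). Split by eligible length, the shares stood apart in 1 of 4 bins: among genes with 1000 to 3000 eligible bp they were 24% (16.7 to 33.2) and 9.07%. In the other bins the host interval held the share of other genes. The shares were 12.2% (5.32 to 25.5) and 10% up to 1000 bp, 13.8% (9.11 to 20.3) and 10.2% from 3000 to 10000 bp, and 10% (5.35 to 17.9) and 9.37% above that. Intronic summits of hosts with a bound start window had a median signal of 41.5 (36.4 to 46.7, n = 84), and the others 36.1 (35.2 to 37.2, n = 394).

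Base composition and repeats marked the summits off from the sequence around them. GC content within 50 bp had a median of 45.5% (44.6 to 46.5), equal to that of the other summits, and 35.6% in flanks centred 300 bp to either side. The flanks were not confined to the host intron. All 258481 non-overlapping windows of the same length in eligible sequence had a median of 31.7%. The GA repeat GAGAGA, counted on both strands, lay within 50 bp of 168 summits, or 35.1% (31.0 to 39.5), against 7.53% and 4.81% of the left and right flanks and 4.31% of eligible windows. Among the other summits it lay at 25.6%, a difference of 9.50 points (4.96 to 14.2). Distal intergenic summits, with 34.2%, were close to the intronic ones, and gene-start windows had 22.6%. GA runs of 10 bases were at 7.53% of intronic summits, 7.96% of distal intergenic ones and 1.47% of those in gene-start windows.

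CA repeats showed another order of the classes. CACACA was at 22.6% of them (19.1 to 26.6), 15.8% of gene-start summits and 14.3% of distal intergenic ones. It was at 4.15% of eligible windows. This sequence was picked out after its values were seen, as the fifth of all 2080 6-mers by excess over the flanks.

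The 8-mer printed above was about as common at intronic summits as at the others. It was at 10.5% of intronic summits (8.02 to 13.5) and 9.90% of the others, with 11.3% at distal intergenic summits and 9.63% in gene-start windows. It was at 1.26% and 0.628% of the flanks and 0.589% of eligible windows. Intronic summits with it had a median signal of 44.4 (37.2 to 50.7), and those without it 36 (35 to 37.4). Its hexamers CGTCTC and GACGCA were at 20.7% and 14.2% of intronic summits. The hexamer GCGCGC was less common at intronic than at other summits, 4.81% against 8.21%, a difference of -3.40 points (-5.39 to -0.856). Distal intergenic summits were lower still, with 3.48%, and gene-start windows had 10.3%.

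Orientation relative to the host transcript was uneven. Among the 161 summits with GAGAGA on 1 strand, 57 had it on the host's sense strand and the others on the antisense strand, which is 35.4% sense (28.4 to 43.1). In eligible windows the sense share was 43.1%, within rounding of the upper bound. The 8-mer was on the sense strand in 33 of 48 such cases, 68.8% (54.7 to 80.1), against 55.9% of eligible windows, which lies inside that interval. CGTCTC was on the sense strand in 64 of 94, 68.1% (58.1 to 76.6), against 54.8%.

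Among the sites of known factor classes, TGANTCA was at 42 summits, 8.79% (6.57 to 11.7), against 2.93% and 4.60% of the flanks, and its share differed from that of other summits by 1.87 points, with an interval that spans 0 (-0.616 to 4.91). The genes vhp-1, jun-1 and par-1 each held 2 summits with it. At the stronger of these summits in par-1 and the weaker in vhp-1 the match was TGAATCA, not TGACTCA or TGAGTCA. Among further hosts, the match was TGAATCA in lim-8 and TGATTCA in B0198.3 and act-3. The 42 summits therefore do not all carry the forms named above as bound by Jun and Fos proteins. The site described for monomers of the NR4A class, AAAGGTCA, was at 5 summits, 1.05% (0.448 to 2.43), against 0% and 0.837% of the flanks and 0.287% of eligible windows. Its share differed from that of other summits by 0.377 points, with an interval that spans 0 (-0.361 to 1.78). These were in ifbp-1, B0198.3, lgmn-1, acr-18 and magu-2, and the shorter core AGGTCA was at 5.02% against 2.30% of both flanks. The B-box core of tRNA genes, GGTTCGA, was at 4.18% (2.72 to 6.37), 2.27 points above other summits (0.666 to 4.51). Distal intergenic summits, with 3.48%, lay inside the intronic interval, and gene-start windows had 1.40%. TATAAA and TAATTA were rarer at the summits, with 4.39% and 1.05%, than in eligible windows, with 12.7% and 5.48%. A match describes letters in the window and does not show which protein was bound. Summits near small RNA genes differed in sequence from the rest: GAGAGA was at 15% of those 80 (8.79 to 24.4) and at 39.2% of the other 398 (34.5 to 44.1), and their median GC content was 51.5%.

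**Figure D5:**
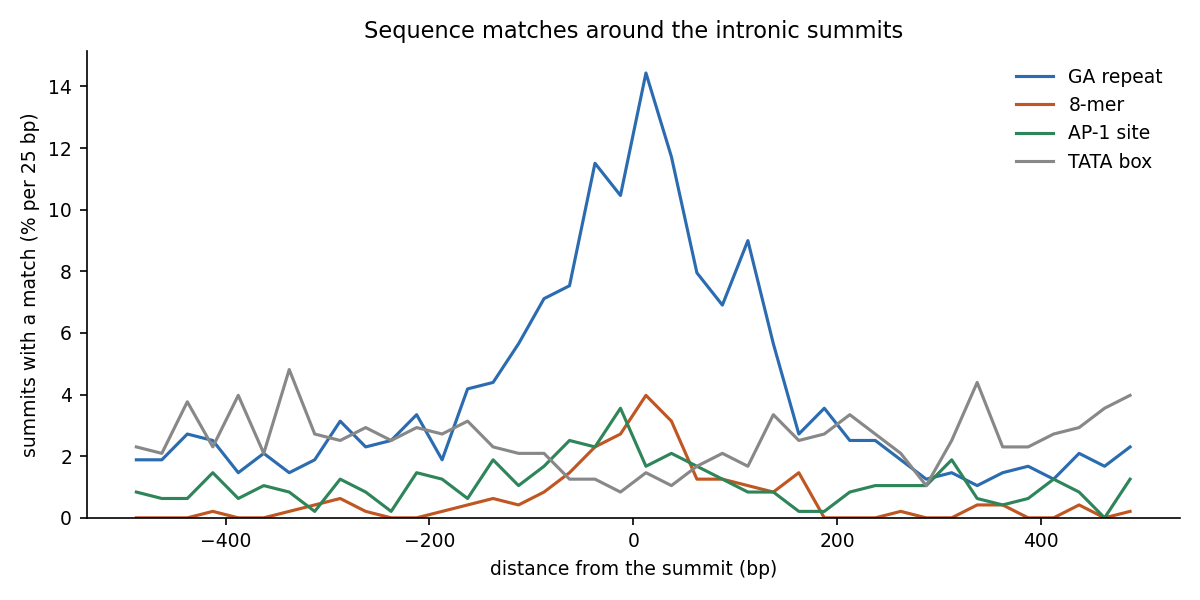
Share of the 478 intronic summits with a match in each bin of 25 bp, in percent, against the distance from the summit in bp, for the GA repeat, the 8-mer, the AP-1 type site and the TATA box. The GA repeat rises from about the flank level to a peak of 14.4% at the summit, the 8-mer peaks there at 3.97%, and the TATA box dips.

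Along the chromosomes, density ranged from 12.6 summits per eligible Mb on chromosome IV to 19.3 on II. Chromosome X held 96 summits, 20.1% (16.7 to 23.9), on 16.8% of eligible bases. The strongest summit on each chromosome was in hmr-1, nhr-19, egl-5, jac-1, F53C11.5 and mom-1, for I, II, III, IV, V and X in that order. At the limits of the rule, the kept summit nearest to the upstream limit lay 1006 bp from the nearest gene start, with a signal of 43.2, and the nearest one left out lay 984 bp away, with 42.9. On the downstream side the kept summit in stam-1 lay 202 bp from a gene start and the one left out, in egl-17, 180 bp. In all, 76 of 554 intronic summits were left out because they lay in a gene-start window.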

How the data were processed

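Per the labels, chromatin immunoprecipitation with sequencing was done on eGFP-tagged NHR-6 in 2 biological replicates. The authors deposited relaxed peak lists for each replicate and for both pooled, and a list thresholded by IDR. The columns used are the authors' signal, the summit offset and the −log10 q-value, which the authors deposited at its maximum for every thresholded peak, so that it ranks none of them. No source here names the aligner, caller or settings. Lists in ce11 were used. Genes came from Ensembl release 115 and sequence from RefSeq, both WBcel235. Python 3.11.15, numpy 2.4.6, pandas 2.3.3, scipy 1.17.1 and matplotlib 3.10.9 were used.

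An intron is a gap between merged CDS and UTR blocks of the smallest gene with a gap there. Shares have Wilson intervals, differences Newcombe intervals, medians order-statistic intervals and densities Poisson intervals, all at 95%, covering counting error only, with no p-values. The replicate's peak matched to a summit overlapped it by at least 1 bp. Masks were tested against a base-by-base count at random positions of the genome, and motif search and intervals were tested on simulated data. Members, 14 gene lists and 18 motifs were chosen with earlier results of these data known. Genes named come from the 25 strongest, hosts of 3 or more, the strongest few per annotation, list and chromosome, and the limits of the rule. Outside it, ntl-3, daf-12, B0198.3, lgmn-1 and magu-2 are named for a motif match, chosen after their values were seen. Alternatives varied the rule, the list of peaks, distances and windows.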

Additional observations from a re-analysis of the deposited data

How the results depend on the processing

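Of 142 values recomputed under 23 alternative settings, all but 39 stayed within the interval of the reported value (within 1.5 times for the count of hosts); the cause was not tested where none is named. No paired analysis was possible because there is 1 group. With the window extended to 2000 bp upstream, 15.7% of summits were kept. With a window at every transcript start, which removes inner starts by construction, 12.1% were kept, 1.52% lay near an inner start and 34.2% near a noncoding gene, the median intron was 2795 bp, and 43 hosts held 2 or more summits (65 as reported). With the whole peak clear of exons and windows, 12.3% were kept, 42.2% were in a first intron, the median intron was 3573 bp, 15.8% lay near an inner start, 22.7% near a noncoding gene and 41.2% had the GA repeat. In the stronger part of the list (0.5 of it), 14.9% were kept, the median intron was 2751 bp, the GA repeat was at 39.9%, CGTCTC at 26.6%, the base composition was 47.5% GC, 79.8% were top peaks in both replicates and 25 hosts held 2 or more. Among all pooled peaks at the highest q-value the last 5 values were 30.7%, 17.1%, 43.6%, 31% and 121 hosts.

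Distances and windows set levels by construction. Inner starts were near 10.5% at 200 bp and 36% at 1000 bp; noncoding genes near 24.9% at 100 bp, 36% at 500 bp and 18.8% without the class ncRNA. The GA repeat was at 20.3% within 25 bp and 50% within 100 bp, and CGTCTC at 11.3% and 30.5%. With top peaks numbering 0.5 or 2 times as many, 19.2% and 81.2% were among those of both replicates. The GA repeat exceeded flanks at 200 bp by 24.6 points. Among genes in no list, 1.82% of those with eligible bases held a summit. Among the top peaks of replicate 2 and of replicate 1 alone, kept summits were 17.5% to 18.6%, first introns 33.1% to 34.5%, the median intron 2216 to 2333 bp, inner starts 21.2% to 21.8%, noncoding genes 27.9% to 28.1%, the GA repeat 30.8% to 33.3%, CGTCTC 16.6% to 18.4%, GC content 44.6% in both, the signal ratio to other peaks 0.913 to 0.944 and hosts 71 to 77; the overlap of both replicates has no such value. Leaving out egl-5, added after seeing the data, moved no value.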
